A study of Drosophila melanogaster with 7 samples.

Results

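The genes of the Dpp and EGF receptor pathways were followed in Drosophila melanogaster embryos that lacked zygotic lola function. The lola gene encodes many isoforms of a zinc-finger protein with a BTB domain, and axons need it to grow and to find their way. The members were 32 genes given by symbol, 15 of the Dpp/BMP pathway and 17 of the EGF receptor pathway. A member counted as measured when the platform annotation gave its symbol, current or older, as the only gene of a cDNA clone. By this rule 17 of the 32 had a clone, out of 7583 genes in all, with 1 clone each: 9 Dpp/BMP genes and 8 EGF receptor genes. The other 15 members were not analysed here. They were dpp, tkv, Med, brk, sog and tsg of the first pathway and rho, vn, Ras85D, csw, sty, Raf, rl, ksr and pnt of the second. Clone RE38484, which the platform pairs with Mad and LpR1 together, was left aside.

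Each of 7 spotted 2-colour arrays set RNA of mutant embryos against RNA of control embryos. The mutants were homozygous for lolaORE76, with the sca-GAL4 driver on one lola chromosome and the UAS-tau-eGFP reporter on the other. The controls had the same driver and reporter without the lola allele, and all flies were w1118. The driver follows scabrous, and by the GFP signal in the central nervous system, whole embryos of both genotypes were picked by hand and used at 10 to 12 hours of age. The lola allele has a stop codon near the start of the region common to its isoforms and is described as a molecular null. One and the same allele was put onto both marked chromosomes, so modifiers linked to it cannot be told apart from lola, and the genotype does not remove Lola supplied by the mother. About 300 embryos were pooled for each RNA sample. Every array held its own mutant and control pair, collected on the same day, so there were 7 replicates, and their number limits the precision. The value is the log2 ratio of mutant over control, in which 0 means no difference. The deposited table carries the opposite sign and does not state its direction. The direction used here is the likely one, taken from the sign that the study prints for clones of its quantitative RT-PCR table: all 14 found among the features had the opposite sign as deposited. The columns already ran in 1 direction whichever dye the mutant carried. This was read from 70 features whose absolute log2 ratios had a mean over 1 across arrays. Of these, 62 had means of the same sign in both dye orientations.

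Dpp is a BMP-type ligand. It binds pairs of type I and type II serine/threonine kinase receptors, which phosphorylate the Smad protein Mad, and Mad enters the nucleus with Medea to change transcription. In the fly embryo the pathway patterns the dorsal side, and later it acts in dorsal closure, in the gut and, through Gbb, at the synapses of motor neurons. The EGF receptor is a receptor tyrosine kinase whose main embryonic ligand, Spitz, is made as a membrane-bound precursor and released by Star and Rhomboid. Its signal runs through Drk, Sos, Ras and a kinase cascade to the ETS factors Pointed and Yan, and it patterns the ventral ectoderm, the midline and the muscle and neural precursors.

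Some features of the series bear on every value below. Array 6 stood apart for markers of several tissues: the mean log2 ratio of 6 muscle genes was -1.75 there, against -0.57 to 0.77 on the other arrays, and that of 8 epidermal and cuticle genes was -1.01, against -0.27 to 0.50. For 6 genes of the amnioserosa and dorsal epidermis, tissues in which Dpp acts, array 6 was at 0.09 and the others between -0.10 and 0.16. Of 6 measured haemocyte markers 3 rose (PPO1 0.40, Pxn 0.36 and PPO2 0.26), beside 3.24% of all genes. The other 3 did not pass, the lowest being NimC1 at -0.09. Of 6 glial markers 2 fell (Gs2 -0.57 and alrm -0.37), beside 2.35% of all genes. The other 4 did not pass, the highest being repo at 0.06. The 2 clones of Pxn differed, at 0.53 and 0.18. When 1 array was left out, Pxn and Gs2 passed each time, PPO1 did not pass without array 2 or 4, PPO2 without any of arrays 2 to 5 and alrm without array 2, 4, 5, 6 or 7 (adjusted p from 0.0508 to 0.105 over these fits). The same log2 means were -0.28 for 6 glial genes on array 6, against -0.28 to -0.04 elsewhere, -0.52 for 4 tracheal genes, against -0.08 to 0.33, and 0.14 for 6 haemocyte genes, against 0.12 to 0.23. Of 6 neuronal markers only nSyb was measured, at -1.14 on array 6, with the other arrays between -0.50 and 0.02. The part of these markers in the members' values was not tested. Ratios do not show the level of a marker in either genotype, and in RNA of whole embryos fewer cells of a type and less RNA per cell cannot be told apart. The lola gene itself, averaged over 4 clones whose means ran from 0.01 to 0.65, was at 0.28 ± 0.16 (SD, n = 7). All 7 arrays were above 0, and lola passed in limma's moderated test (adjusted p = 0.0344). Its value is no check of the labels because a stop codon need not lower the RNA.

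No member of either pathway passed the test. In limma's moderated test with Benjamini-Hochberg adjustment over all 7583 genes, 0 of 17 members had an adjusted p under 0.05, against 5.59% of all genes. At an unadjusted p under 0.05 the count was 2 of 17, put and gbb, against 19.5% of all genes. The clone-level fit over 10227 features, of which 6.11% passed, gave 0 members. Each member had 1 clone, so that fit used the same values for it and is no second test. The means of the members ran from -0.12 for Sos to 0.19 for gbb, with a median of 0.02, beside a median of -0.02 over all genes. The median of their absolute means was 0.06, against 0.08 for all genes, and the median SD over arrays was 0.15, against 0.19. A set of 17 genes is small, and these figures describe the members without comparing them with other sets.

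**Figure D1:**
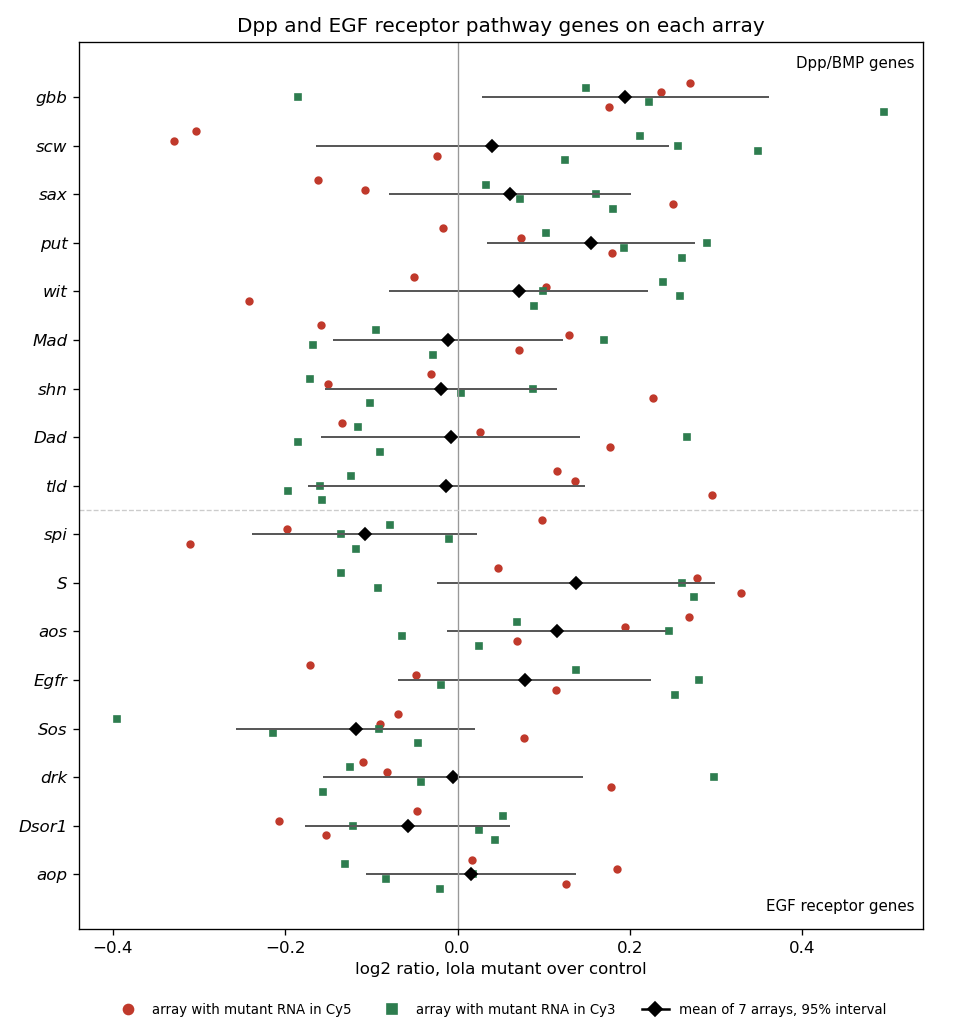
Log2 ratio of lola mutant over control embryos (horizontal axis) for the 17 measured genes on each of 7 arrays. Circles are the 3 arrays with mutant RNA in Cy5, squares the 4 with mutant RNA in Cy3, and diamonds with lines the mean and its 95% interval from limma. All means lie between -0.12 and 0.19, and no gene has all 7 arrays on the same side of 0.

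The 95% intervals of the means, from limma and not adjusted for the number of genes, reached a median of 0.14 on the log2 scale to either side of the mean, against 0.16 for all genes. They contained 0 for 15 of 17 members, all but gbb and put. The lowest bound of any member was -0.26, for Sos, a 1.19-fold decrease, and the highest was 0.36, for gbb, a 1.28-fold increase. For 14 members the whole interval lay within a 1.2-fold change in either direction, which held for 54.9% of all genes. In 0 members did all 7 arrays have the same sign, which held for 9.47% of all genes. In 5 members 6 of 7 arrays lay on 1 side of 0: gbb, put and aos above it, and spi and Sos below it. No share over all genes was taken for this count.

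Among the Dpp/BMP ligands, gbb had the highest mean of all members. Gbb (glass bottom boat) is a BMP that muscles release as a retrograde signal to motor neurons. Its log2 ratios on arrays 1 to 7 were 0.27, 0.15, 0.24, -0.19, 0.22, 0.18 and 0.50. Array 4 was thus the single array below 0, and array 7 was the highest. The mean was 0.19 ± 0.20 (SD, n = 7), a 1.14-fold difference with a 95% interval from 0.03 to 0.36, and did not pass (adjusted p = 0.174). Without array 4 the mean was 0.26, and without array 7 it was 0.14.

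The second ligand gene, scw (screw), encodes the partner of Dpp in early dorsal patterning, and it varied more between arrays than any other member. Its ratios were -0.30, 0.21, -0.33, 0.26, 0.35, -0.02 and 0.12 on arrays 1 to 7. Arrays 1, 3 and 6, the ones with mutant RNA in Cy5, were below 0, and the 4 others were above it. The mean over all arrays was 0.04 ± 0.27 (adjusted p = 0.869), with an interval from -0.16 to 0.24.

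Of the 3 measured receptor genes, put had the smallest p of all members. Put (punt) is the type II receptor shared by Dpp and activin-type ligands. Its ratios were -0.02, 0.10, 0.07, 0.29, 0.19, 0.18 and 0.26, so that array 1 was the single array below 0. The mean was 0.15 ± 0.11, 1.11-fold, with an interval from 0.04 to 0.27, and did not pass (adjusted p = 0.135). The type I receptor gene sax (saxophone), whose protein mediates much of the response to Scw and Gbb, had ratios of -0.16, 0.03, -0.11, 0.16, 0.07, 0.25 and 0.18. Its mean was 0.06 ± 0.15 (adjusted p = 0.659), and arrays 1 and 3 were the ones below 0. Wit (wishful thinking) is the type II receptor through which motor neurons respond to Gbb. It was at -0.05, 0.24, 0.10, 0.10, 0.26, -0.24 and 0.09, with array 6 the lowest. Its mean of 0.07 ± 0.17 did not pass either (adjusted p = 0.623). Means over all 7 arrays were thus above 0 for the 3 measured receptor genes and both measured ligand genes, without any of them passing. The other measured Dpp/BMP genes, Mad, shn, Dad and tld, had means below 0. Over all genes 44.9% of the means were above 0. On the arrays with mutant RNA in Cy5 alone, the means of scw (-0.22), sax (-0.0066) and wit (-0.063) were below 0.

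The intracellular and nuclear genes of the pathway lay close to 0. Mad, the Smad phosphorylated by the receptors, had a mean of -0.01 ± 0.14 on clone RE72705, with arrays from -0.17 to 0.17 (interval -0.14 to 0.12; adjusted p = 0.942). Shn (schnurri), a zinc-finger protein that joins Mad and Medea on DNA to repress brk, was at -0.03, -0.17, -0.15, 0.09, 0.00, 0.23 and -0.10, with a mean of -0.02 ± 0.14 (adjusted p = 0.905). Dad encodes an inhibitory Smad and is itself induced by Dpp. Its ratios were -0.13, -0.12, 0.03, 0.27, -0.19, 0.18 and -0.09, and its mean was -0.01 ± 0.17, with an interval from -0.16 to 0.14 (adjusted p = 0.962). Both signs therefore occurred in each of these genes, and arrays 4 and 6 were the highest for Dad. As a gene that responds to the pathway, Dad had an interval from 0.897-fold to 1.102-fold of control.

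The single extracellular regulator measured was tld. Tolloid is a metalloprotease that cleaves the BMP inhibitor Sog and so frees the ligands. The ratios of tld were 0.12, -0.12, 0.14, -0.16, -0.20, 0.30 and -0.16. All 3 arrays with mutant RNA in Cy5 were above 0 and all 4 with mutant RNA in Cy3 below it. The mean over all arrays was -0.01 ± 0.19, with an interval from -0.17 to 0.15 (adjusted p = 0.943).

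In the EGF receptor pathway, the ligand and its processing gene differed in sign without passing. Spi (spitz), the main ligand, had ratios of 0.10, -0.08, -0.20, -0.14, -0.01, -0.31 and -0.12, and array 1 was the single one above 0. Its mean was -0.11 ± 0.13, with an interval from -0.24 to 0.02 (adjusted p = 0.353). Star (S), which escorts Spitz out of the endoplasmic reticulum for cleavage, had ratios of 0.05, -0.13, 0.28, 0.26, -0.09, 0.33 and 0.27. Its mean was 0.14 ± 0.19, with an interval from -0.02 to 0.30 (adjusted p = 0.337). Aos (argos) is a secreted inhibitor that binds Spitz, and its gene is induced by the pathway itself. Its ratios were 0.27, 0.07, 0.19, 0.25, -0.06, 0.07 and 0.02, with array 5 the single one below 0. The mean of aos was 0.12 ± 0.12, 1.08-fold, with an interval from -0.01 to 0.24 (adjusted p = 0.303).

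The receptor and its downstream genes also stayed within small ratios. Egfr had ratios of -0.17, 0.14, -0.05, 0.28, -0.02, 0.11 and 0.25, with a mean of 0.08 ± 0.17 and an interval from -0.07 to 0.22 (adjusted p = 0.571). Of the genes that link the receptor to Ras, Sos (Son of sevenless), the exchange factor that loads Ras with GTP, had the lowest mean of all members. The ratios of Sos were -0.07, -0.39, -0.09, -0.09, -0.21, 0.08 and -0.05, with array 2 the lowest and array 6 the single one above 0. Its mean was -0.12 ± 0.15, with an interval from -0.26 to 0.02 (adjusted p = 0.333), and without array 2 it was -0.07. Drk, the adaptor that brings Sos to the receptor, was at -0.11, -0.13, -0.08, 0.30, -0.04, 0.18 and -0.16, with a mean of -0.01 ± 0.17 (adjusted p = 0.971). For drk, arrays 4 and 6 were the ones above 0.

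Dsor1 encodes the MEK of the cascade, which phosphorylates the MAP kinase Rolled. It had the smallest SD of all members, with ratios of -0.05, 0.05, -0.21, -0.12, 0.02, -0.15 and 0.04 and a mean of -0.06 ± 0.10 (interval -0.18 to 0.06; adjusted p = 0.608). The gene aop encodes Yan, the ETS repressor that MAP kinase removes from the nucleus. Its ratios were 0.02, -0.13, 0.18, 0.02, -0.08, 0.13 and -0.02, with a mean of 0.02 ± 0.11 and an interval from -0.10 to 0.14 (adjusted p = 0.913).

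By pathway, the median of the means was 0.04 for the 9 Dpp/BMP genes and 0.01 for the 8 EGF receptor genes. Of the 9, 5 had a mean above 0, and of the 8, 4 did, beside 44.9% of all genes. The median ratio of the 17 members ran from -0.08 on array 2 to 0.16 on array 4, and that of all genes from -0.01 to 0.01. Arrays 4 and 6 were the highest for the members, and array 6, which stood apart for muscle and cuticle markers, had a member median of 0.13. Without array 6, put had a mean of 0.15 and gbb one of 0.20 (adjusted p = 0.169 and 0.192), and 0 members passed, with 3 at an unadjusted p under 0.05 (put, gbb and Sos), against 22.7% of all genes in that fit.

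**Figure D2:**
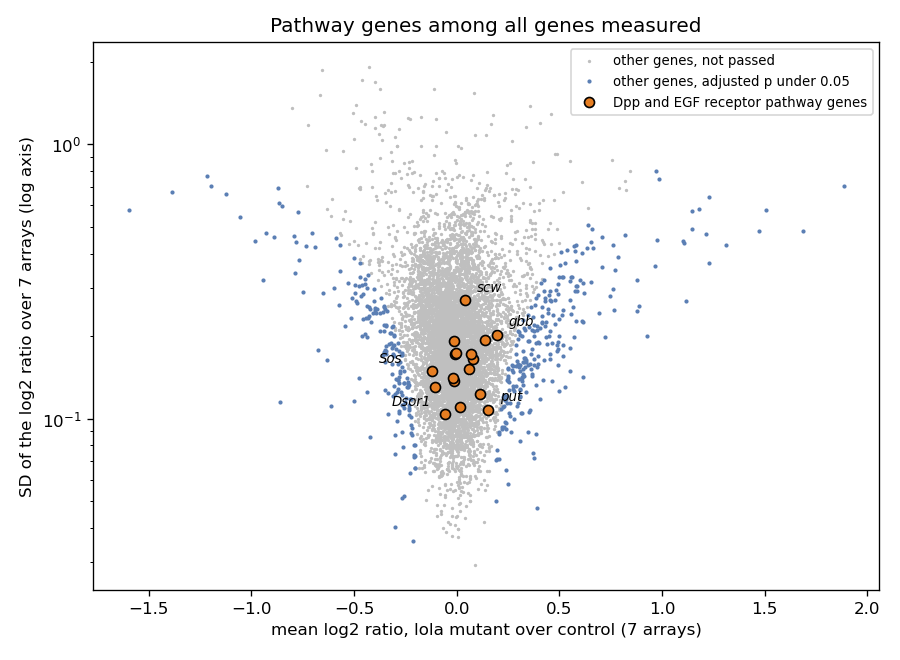
Mean log2 ratio of lola mutant over control embryos (horizontal axis) against its SD over 7 arrays (vertical log axis) for 7583 genes. Large dots are the 17 pathway genes, small blue dots the other genes with an adjusted p under 0.05 and grey dots the rest. The pathway genes lie between -0.12 and 0.19, with SDs from 0.10 for Dsor1 to 0.27 for scw.

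For 2 of 17 members, scw and tld, the difference between the 2 dye orientations passed the test. The orientation means of 9 members had opposite signs (scw, sax, wit, Mad, shn, Dad, tld, Egfr and aop). No share over all genes was taken for that count, so it is not read as a trait of the members. The mutant sample was labelled with Cy5 on 3 arrays (1, 3 and 6) and with Cy3 on 4 (2, 4, 5 and 7), and the difference between these groups was tested in limma for every gene. In scw the mean was -0.22 ± 0.17 with the mutant in Cy5 (SD, n = 3) and 0.24 ± 0.09 with the mutant in Cy3 (n = 4). The difference was -0.45, with an interval from -0.70 to -0.21 (adjusted p = 0.0277). In tld the direction was the other one, with 0.18 ± 0.10 in Cy5 and -0.16 ± 0.03 in Cy3, a difference of 0.34 and an interval from 0.15 to 0.54 (adjusted p = 0.034). These 2 of 17 members passed, against 12.9% of all genes, and they were also the 2 whose orientations did not overlap, against 26.1% of all genes. When 1 array was left out, scw still passed without array 4, 6 or 7 and tld without array 4 or 6. Each orientation also held its own pairs of embryo collections, so dye and collection cannot be told apart. The other 15 members did not pass, and the next smallest p was that of wit, at -0.06 ± 0.17 in Cy5 and 0.17 ± 0.09 in Cy3 (adjusted p = 0.196).

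With a dye term in the fit, which weights both orientations equally, 0 of 17 members passed for genotype, against 8.45% of all genes, and 3 had an unadjusted p under 0.05 (put, gbb and aos), against 23.4% of all genes. In that fit the mean of scw was 0.01, with an interval from -0.11 to 0.13, and that of tld was 0.01, with an interval from -0.09 to 0.11. Put had 0.15 (adjusted p = 0.0921) and gbb 0.20 (adjusted p = 0.141). The intervals of scw and tld were thus narrower than those without the term.

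**Figure D3:**
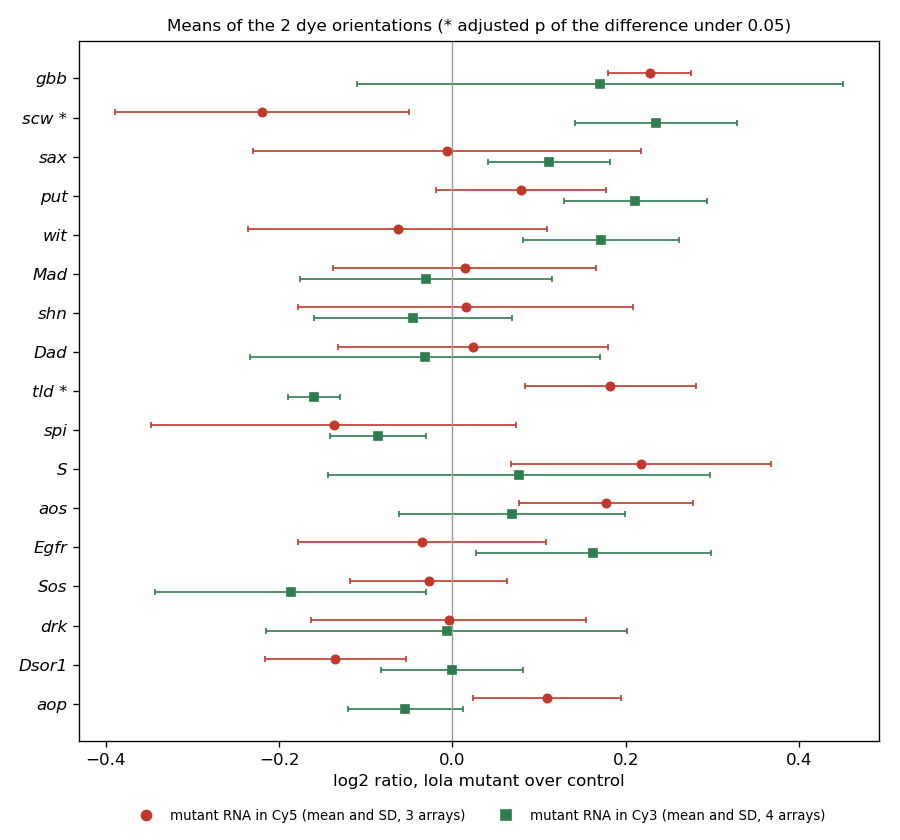
Mean log2 ratio of lola mutant over control embryos (horizontal axis) for each of the 17 genes, with circles for the 3 arrays with mutant RNA in Cy5 and squares for the 4 with mutant RNA in Cy3, and bars of 1 SD. An asterisk marks an adjusted p under 0.05 for the difference, which only scw (-0.22 against 0.24) and tld (0.18 against -0.16) reached.

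The call of put depended on how the arrays were combined. Array weights that limma estimated over the gene averages gave 2 members as passed, in a fit where 21.4% of all genes passed. They were put at 0.16 (adjusted p = 0.0314) and Sos at -0.20 (adjusted p = 0.0383). Estimated over the clones instead, the weights were 2.55 and 2.43 for arrays 2 and 5 and 0.456 for array 6. The 4 arrays with mutant RNA in Cy3 alone also gave 2, put at 0.21 (adjusted p = 0.0393) and scw at 0.24 (adjusted p = 0.0291), where 26.4% of all genes passed. With the 3 arrays in Cy5 alone, 0 members passed in limma, 1 (gbb, mean 0.23) had an unadjusted p under 0.05, against 17.2% of all genes, and 0 of all genes passed. On those 3 arrays scw was at -0.22 and put at 0.08.

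The members lay on 5 chromosome arms, among them 2R, which holds lola. The median of the means was 0.00 for 6 members on 2L, 0.06 for 5 on 2R, -0.01 for 3 on 3R and 0.09 for 2 on 3L, and Dsor1 was the single one on X. Gene shn was the nearest to lola on 2R, with 51 protein-coding genes between them in the RefSeq annotation (Release 6 plus ISO1 MT). Next came sax and drk with 414 and 426 genes between, then Egfr with 1514 and gbb with 1894. Mean ratios in this order were -0.02, 0.06, -0.01, 0.08 and 0.19, and none passed.

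Other genes of the pathways were read from lists of components and targets. Of 10 measured genes among 17 other Dpp/BMP components, 1 rose and 0 fell, beside 3.24% and 2.35% of all genes that rose and fell. The one that rose was dlp, which encodes a cell-surface glypican, with ratios of 0.16, 0.17, 0.10, 0.35, 0.18, 0.34 and 0.24. All 7 arrays were above 0, and the mean was 0.22 ± 0.09, 1.17-fold (adjusted p = 0.0354). The study singled out this gene on the same arrays, so its call is not independent evidence. It kept its call when array 1 was left out and lost it when any of the others was, with adjusted p between 0.0547 and 0.115. The list's median was -0.003, beside -0.02 over all genes, and its lowest mean was that of tok, a Tolloid-related protease gene, at -0.15 ± 0.15 (adjusted p = 0.207). Smox, the Smad of the activin branch, was at 0.19 ± 0.26 (adjusted p = 0.265). Without array 6 it was the single gene of the list that passed, in a fit where 520 of all 7583 genes did.

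In the EGF receptor, Ras and MAP kinase list, 0 of 25 measured genes among 42 passed in limma, against 5.59% of all genes, and 6 had an unadjusted p under 0.05, against 19.5% of all genes. The highest mean was that of tsl (torso-like), needed to activate the Torso receptor at the ends of the early embryo. It was at 0.50, 0.54, 0.51, 0.58, 0.37, -0.23 and 0.10, with a mean of 0.34 ± 0.30 over 2 clones that differed little, 0.33 and 0.35 (adjusted p = 0.0825). Array 6 was the single one below 0, and without it tsl passed. In that fit 520 of all 7583 genes passed, against 424 with all arrays. The other genes of this list with an unadjusted p under 0.05 and a mean above 0 were grk (0.23 ± 0.18), which encodes a ligand of the receptor used in oogenesis, spri (0.16), phyl (0.15) and S6kII (0.15). The lowest mean was that of the kinase cochaperone gene Cdc37, at -0.24 ± 0.25 (adjusted p = 0.159). The list's median was 0.05. Array weights made 4 of its 25 measured genes pass (tsl, grk, sev and Cdc37), in a fit where 21.4% of all genes passed.

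Of 16 measured target genes among 36, 1 rose and 0 fell, beside 3.24% and 2.35% of all genes. It was salr (spalt-related), also on the list of tracheal markers, a zinc-finger gene that responds to Dpp in the wing disc, with ratios of 0.40, 0.14, 0.40, 0.22, 0.13, 0.37 and 0.07. All arrays were above 0, and the mean was 0.25 ± 0.14, 1.19-fold (adjusted p = 0.0431). The call was lost when any array but array 7 was left out, with adjusted p between 0.0708 and 0.116. Its paralogue salm did not pass, at -0.10 ± 0.34 (adjusted p = 0.667). The amnioserosa and dorsal genes of the list, which respond to Dpp in the embryo, had means of 0.11 for Ance, 0.10 for tup, 0.10 for peb, 0.07 for Doc1, 0.06 for ush, 0.04 for Doc3 and 0.02 for Doc2. None of these passed. Kr, on the list of amnioserosa and dorsal epidermis markers, was at -0.22 and did not pass either. The lowest mean was that of pip, at -0.36 ± 0.39 (adjusted p = 0.126), with array 6 at -1.03. Below 0 too was ind, a columnar gene that depends on EGF receptor activity, at -0.12 ± 0.10 (adjusted p = 0.247). On the other side of 0, ovo was at 0.14 ± 0.11 (adjusted p = 0.193). In this list 4 of 16 measured genes had an unadjusted p under 0.05 in limma (salr, pip, ovo and ind), against 19.5% of all genes. The list's median was 0.04.

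**Figure D4:**
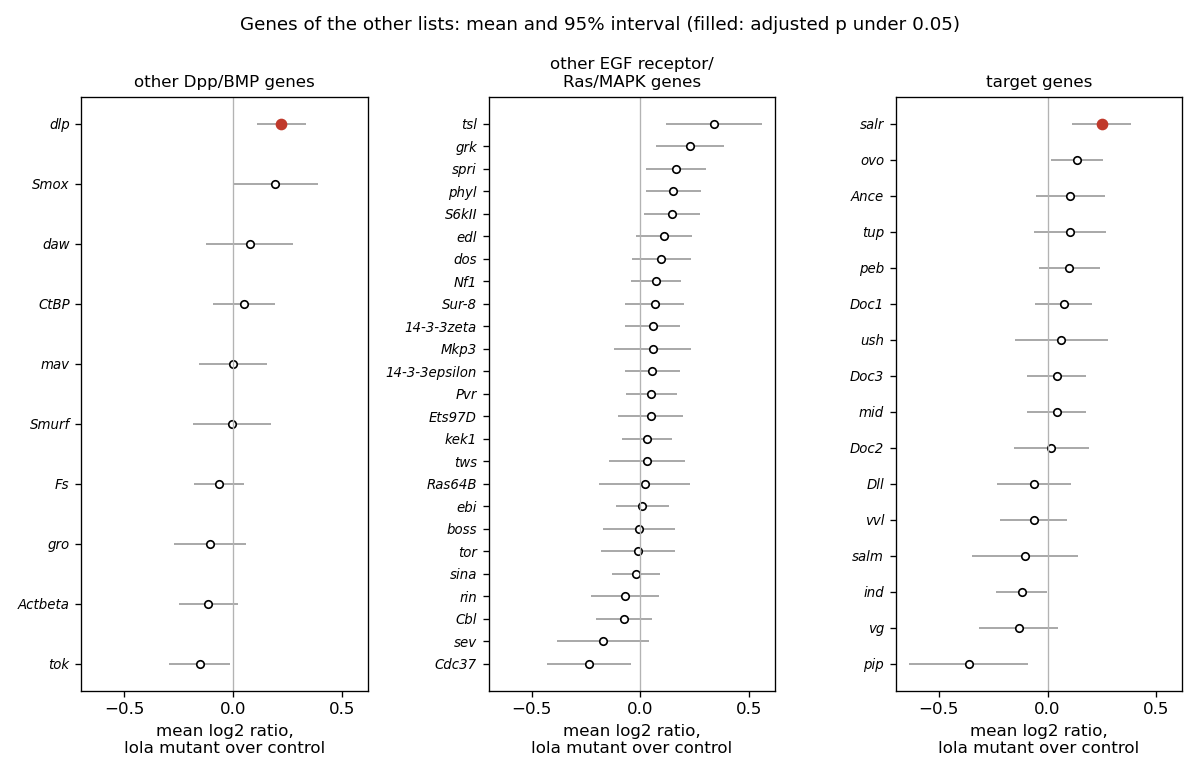
Mean log2 ratio of lola mutant over control embryos with its 95% interval (horizontal axis) for the measured genes of 3 lists. Filled points have an adjusted p under 0.05, which dlp (0.22) and salr (0.25) reached. Open points did not, among them tsl at 0.34 and pip at -0.36.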

How the data were processed

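The authors read spot intensities from GenePix into limma without background correction, normalised them by print-tip loess within arrays and by scale between arrays, and deposited log2 ratios, 1 column per array. Spot brightness was not used here, so dim clones could not be told from bright ones. Of 10376 features, 117 plant and 32 fly genomic control spots were left out. All signs were turned to mutant over control. Features were named from the platform table and updated by gene ID, and clones of a gene were averaged, without 55 clones that the study assigned to retrotransposons or to several sequences. Gene averages and clones went through limma (version 3.58.1, R 4.3.3; lmFit, then eBayes with its defaults), a two-sided test of the mean of 7 arrays against 0, with Benjamini-Hochberg adjustment over the whole table and a threshold of 0.05. The fits were tested on simulated data with known changes larger than any member's mean. The simulated noise was independent between genes and arrays, so that test says nothing about the outcome for the members. Alternatives left out each array, added a dye term or array weights, used 1 orientation, centred arrays, used robust eBayes or a minimum fold of 1.1, and kept control spots or the 55 clones. Members and lists were chosen with earlier results of these data known. By rule, members with the highest or lowest mean of their role group or among the 5 smallest p were given by array; the others were given as well. Of the lists, genes that passed were named, or the highest and lowest mean where none did. Genes tok, pip, Smox, sev, Kr, NimC1, repo, grk, spri, phyl, S6kII, salm, ind, ovo and the dorsal target genes were added after their values were seen. Columns of fold changes and p-values in the study's own list were not used.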

Additional observations from a re-analysis of the deposited data

Results flagged for a closer look

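Among 28 genes, the 17 members and 11 others, 1 had an array far from the rest, about as many as chance gives, since chance sets apart about 1 in 20 such groups. It was the haemocyte gene PPO2, at 0.024 on array 7 and between 0.23 and 0.36 on the other 6. No member had such an array.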

How the results depend on the processing

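Leaving out any 1 array gave 0 members as passed in limma, with 1 to 3 at an unadjusted p under 0.05 and put among them each time, where 14.8% to 22.7% of all genes were. Array weights gave 2 members and the arrays with mutant RNA in Cy3 alone also gave 2, over gene averages and over clones. With 1 clone each, the members had the same values at both levels. The number of all genes that passed moved more, with 424 in the fit of all arrays, 136 without array 2, 141 without array 4, 161 without array 5, 278 without array 3, 307 without array 7, 505 without array 1 and 520 without array 6. It was 93 with a minimum fold of 1.1, 641 with a dye term, 1620 with array weights, 2005 with Cy3 arrays and 0 with Cy5 arrays. When 1 array was left out, 0 to 1 genes passed in the list of other Dpp/BMP genes, 0 to 1 in that of EGF receptor, Ras and MAP kinase genes and 0 to 1 among the targets. Array weights, with which 21.4% of all genes passed, gave 3 of 10, 4 of 25 and 3 of 16 measured genes in these lists. A minimum fold of 1.1 gave 0 for Dpp/BMP genes and 0 for targets. The cause of these shifts was not tested.

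Of 170 alternative member means (1 array left out, dye term, centring or the median over clones), 148 kept their sign and 22 did not, none of them past the threshold. The median over clones could change no member, because each had 1 clone, and centring shifted all means by the same small amount. The 148 therefore include checks whose outcome was fixed or nearly so. Outside these 170 means, array weights turned the sign of 1 member (aop), and the Cy3 arrays alone that of 1 (aop). The Cy5 arrays alone turned that of 8 (scw -0.22, sax -0.0066, wit -0.063, Mad 0.014, shn 0.015, Dad 0.023, tld 0.18 and Egfr -0.035). No share over all genes was taken for these sign changes. With 1 array left out, the mean of scw ran from -0.011 to 0.102, of Mad from -0.041 to 0.015, of shn from -0.060 to 0.0059, of Dad from -0.054 to 0.022, of tld from -0.064 to 0.017, of drk from -0.056 to 0.019 and of aop from -0.012 to 0.040, and tld was at 0.011 with a dye term. The orientation difference ran from -0.55 to -0.40 for scw and from 0.29 to 0.38 for tld. Each array already is the ratio within 1 mutant and control pair, so the test of the mean ratio against 0 is itself paired. No further pairing was added. Signal over background was not used here, so no limit from dim spots can be given.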
